A study of Mus musculus with 21 samples.

Results

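The 8 genes described here code for contractile proteins of heart muscle, its calcium release channel and a methyltransferase of muscle cells: Myh6, Myh7, Myl7, Actc1, Tnnt2, Tnni1, Ryr2 and Smyd1. They are 8 of 21887 protein-coding mouse genes, chosen by name, and every ATAC, ChIP and input peak inside a gene body or within 50 kb of it (the window of the gene) was collected by library. The windows held 63 of the 51264 distinct ATAC regions, where a region is a run of overlapping peaks of any of the 8 libraries, and 0 of the 4582 ChIP and input regions. Of the 63, 22 lay inside a member gene and 41 outside, and 14 lay in the windows of 2 members, since Tnnt2 and Tnni1 are neighbours, as are Myh6 and Myh7.

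All samples came from the A2lox-Sox7-Myc mouse embryonic stem cell line, derived from E14Tg2a, in which doxycycline switches on a Myc-tagged copy of Sox7, a transcription factor of endothelial and endodermal cells. All groups, uninduced ones included, carry this transgene, and 1 cell line stands behind every comparison. Cells were collected from day 4 embryoid bodies, floating aggregates in which mesoderm forms, and induced samples had doxycycline at 1 µg/ml for 24 h. ATAC-seq, which maps open chromatin, was done on 2 induced and 2 uninduced libraries of cells with PDGFRalpha and FLK1 (CPC, the cardiac progenitors of the design text) and of cells with FLK1 and without PDGFRalpha (EPC, the endothelial progenitors). Anti-Myc ChIP-seq was done on unsorted cells, with 4 induced and 4 uninduced samples and 1 input sample, which was uninduced. The growth protocol names another gate, PDGFRalpha+FLK1-, which differs from the sample characteristics used here for the groups.

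Heart muscle contracts when calcium leaves the sarcoplasmic reticulum through the ryanodine receptor and binds the troponin complex on thin filaments of actin, which lets the myosin heads of the thick filaments pull. The genes of these proteins are known to be switched on as progenitors become cardiomyocytes, and much of their control lies in enhancers away from their starts. An ATAC peak marks open chromatin at such an element or at a promoter, and it does not measure how much RNA the gene makes.

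As library-wide facts, the ATAC lists held 23068 to 30732 peaks, the ChIP lists 772 to 2807 and the input list 689, and the read depth behind them is unknown. Uninduced ChIP lists 2 and 4 shared 585 of 772 peak starts (75.8%), against at most 1.04% in other pairs, and they were counted as 1 library. Inside the Sox7 gene an ATAC peak was called in 4 of 4 induced and 0 of 4 uninduced libraries, and DNA of the transgene cannot be told apart from the gene there. Another region at Sox7 (chr14:63943031-63944410) had a peak in 4 of 4 induced and 3 of 4 uninduced libraries. As a check of the sorted cells, EPC-only regions (a peak in 4 of 4 EPC and 0 of 4 CPC libraries) lay in the windows of 6 of 10 endothelial and 8 of 9 blood genes, where CPC-only regions lay near 0 and 1. For 11 cardiac transcription factor genes the counts were 2 with a CPC-only and 1 with an EPC-only region, and the 2 sorting genes Pdgfra and Kdr had neither. Over all genes, 5.02% had a CPC-only and 7.58% an EPC-only region in their window. By this measure the EPC lists carried the marks of their label at most endothelial and blood genes, and the CPC lists at 2 of 11 cardiac factor genes.

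The promoters shown here (250 bases before to 50 after the start, read in the direction of transcription, RefSeq on GRCm38.p6) are the 3 whose start carried an ATAC peak in any library, Ryr2, Tnnt2 and Myh7, and 2 that never did, Actc1 and Myl7. All 8 genes matched the table, with 11 starts in all, and the first listed start is printed for Tnnt2 and Myh7. They lie at chr13:12106896-12107195 on the minus strand (Ryr2), chr1:135836084-135836383 on the plus strand (Tnnt2), and on the minus strand at chr14:54994577-54994876 (Myh7), chr2:114052826-114053125 (Actc1) and chr11:5898733-5899032 (Myl7). Capitals mark the core SOX motif ACAAT, the TATA motif TATAAA and the CArG box (the motif of serum response factor), on either strand.
Ryr2: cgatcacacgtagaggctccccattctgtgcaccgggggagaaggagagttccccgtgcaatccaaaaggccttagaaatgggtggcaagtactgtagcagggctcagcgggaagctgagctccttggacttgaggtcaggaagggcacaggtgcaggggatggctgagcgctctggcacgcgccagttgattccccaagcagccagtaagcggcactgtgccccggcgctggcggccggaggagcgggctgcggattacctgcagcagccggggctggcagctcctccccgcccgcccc
Tnnt2: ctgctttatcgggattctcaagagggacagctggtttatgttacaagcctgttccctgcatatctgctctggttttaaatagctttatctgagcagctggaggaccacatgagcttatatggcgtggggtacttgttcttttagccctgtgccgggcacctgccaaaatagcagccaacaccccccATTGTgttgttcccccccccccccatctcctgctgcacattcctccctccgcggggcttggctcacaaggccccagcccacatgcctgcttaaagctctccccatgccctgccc
Myh7: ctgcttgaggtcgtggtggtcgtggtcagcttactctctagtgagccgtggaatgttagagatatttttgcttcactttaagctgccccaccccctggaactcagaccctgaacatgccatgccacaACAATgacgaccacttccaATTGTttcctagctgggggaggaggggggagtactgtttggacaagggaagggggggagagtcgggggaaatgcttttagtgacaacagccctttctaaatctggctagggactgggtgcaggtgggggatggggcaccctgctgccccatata
Actc1: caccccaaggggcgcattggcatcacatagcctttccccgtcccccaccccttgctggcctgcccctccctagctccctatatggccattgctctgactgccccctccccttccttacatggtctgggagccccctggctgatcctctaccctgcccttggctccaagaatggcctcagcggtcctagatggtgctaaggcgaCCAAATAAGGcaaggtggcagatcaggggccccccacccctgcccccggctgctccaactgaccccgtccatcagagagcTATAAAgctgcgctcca
Myl7: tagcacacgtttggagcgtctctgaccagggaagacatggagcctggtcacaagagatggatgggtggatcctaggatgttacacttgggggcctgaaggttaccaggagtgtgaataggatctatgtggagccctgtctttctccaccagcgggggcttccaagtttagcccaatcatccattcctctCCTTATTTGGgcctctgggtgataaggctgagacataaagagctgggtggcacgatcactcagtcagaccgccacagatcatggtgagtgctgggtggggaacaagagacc

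The Ryr2 promoter, with 18 CG pairs and a GC content of 65.3%, has none of the marked motifs. The CArG box was found in the Actc1 and Myl7 promoters, in 2 of 11 member promoters, against 1.52% of all 21263 promoters. It begins 47 bases before the Actc1 start and 61 bases before the Myl7 start. TATAAA was found in Actc1, Smyd1 and Myh6 (3 of 11, against 12.6% of all promoters), in Actc1 33 bases after the listed start. ACAAT was found at the first Tnnt2 start and at both Myh7 starts (3 of 11, against 27.7%).

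Other motifs of heart development were as scattered. The GATA motif AGATAA was in the Tnnt2 promoter alone (1 of 11, against 9.65%), the NKX motif TNAAGTG in Smyd1 and Myh7 (2 of 11, against 10.8%) and the T-box motif GGTGTG at both Tnni1 starts (2 of 11, against 18.4%). The TEAD motif GGAATG was at 4 of 11 starts, those of Tnnt2, Myl7, Myh6 and Myh7 (against 13.6%). The E-box CANNTG was at 10 of 11 (against 69.0%), and in Myh7 it overlaps one of the ACAAT matches. The MEF2 motif was at 0 of 11 (against 2.74%). A match is a run of letters, not a bound site.

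Most of these heart genes had no ATAC peak over their starts in either progenitor type. Ryr2, the calcium release channel of the sarcoplasmic reticulum, was the exception, with a peak over its start in 8 of 8 libraries. The caller's scores there were 476 and 423 in induced CPC, 140 and 130 in uninduced CPC, 230 and 298 in induced EPC, and 295 and 188 in uninduced EPC. Scores are the authors' own value for each peak and rank peaks within a list. Read depth is unknown, so where scores of several libraries stand side by side, or a mean score picks out a region, they describe the peaks and test no difference. At the first start of Tnnt2, the troponin that anchors the complex to tropomyosin, a peak was called in 2 libraries, with a score of 57.6 in CPC induced 2 and 92.4 in CPC uninduced 1. At the starts of Myh7, the beta myosin heavy chain, a peak was called in EPC uninduced 1 alone, with a score of 58.6.

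The other 5 genes had no peak at a listed start in any library. The nearest region lay 0.474 kb away for Tnni1, 1.52 kb for Smyd1, 4.2 kb for Actc1, 5.35 kb for Myl7 and 27.8 kb for Myh6. The annotated Tnni1 gene begins upstream of its listed starts, and that end was covered by a weak region, centred 16.4 kb before them, in both induced EPC libraries. Of the 11 member starts, 1 had a peak in all 8 libraries, against 41.1% of all promoters, and 7 had none, against 41.1%. CG content went with this over the whole genome. Promoters with a peak in all 8 libraries had a median of 22 CG pairs and those with none had 3. Apart from Ryr2, the member promoters had 1 to 7 CG pairs. Of the 8184 promoters with 7 or fewer, 85.2% had a peak in no library and 5.69% in all 8. Of the 8572 with at least the 18 of Ryr2, 70.3% had a peak in all 8 and 7.01% in none. Among promoters with 7 or fewer CG pairs, a start with no peak, as at 7 of the member starts, is the common case. The first Tnnt2 start, with a peak in 2 libraries, and both Myh7 starts, with a peak in 1, differ from it. Among promoters with 18 or more, a peak in every library, as in Ryr2, is the common case. Ryr2 stands at the lower edge of that group.

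**Figure D1:**
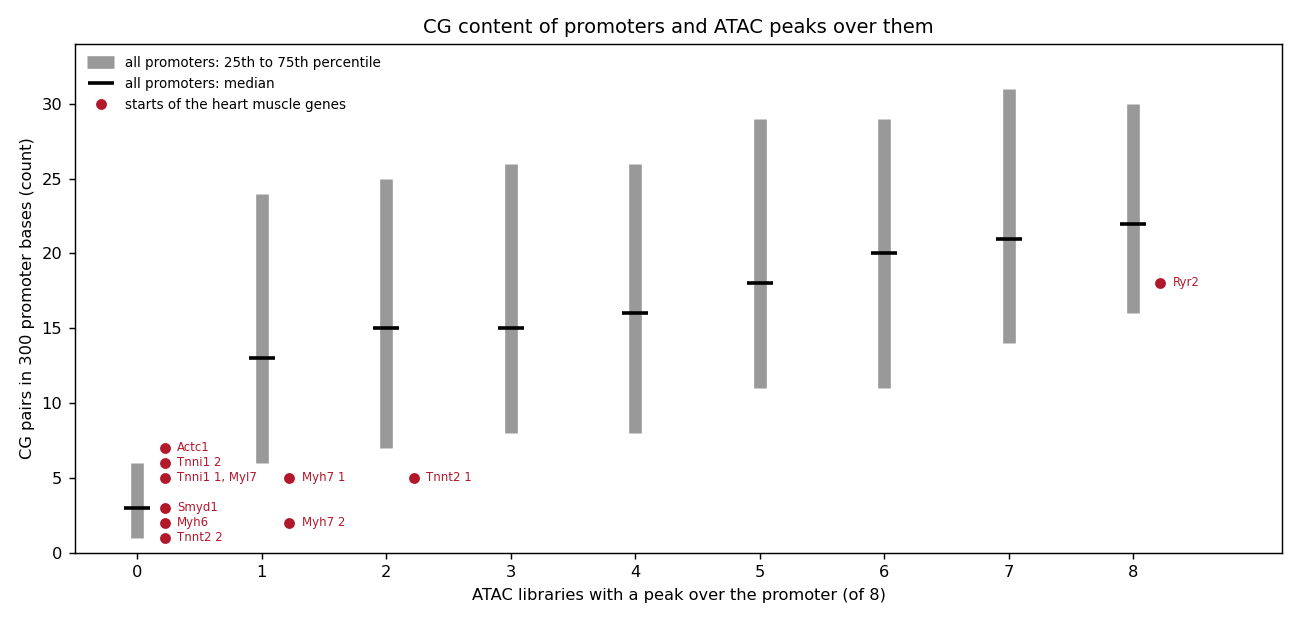
CG pairs in the 300 promoter bases (vertical axis, count) by the number of ATAC libraries, of 8, with a peak over the promoter. Grey bars span the 25th to 75th percentile of all promoters, black lines are medians, and red points are the 11 member starts, numbered where a gene has 2. Ryr2 stands at 18 CG pairs and 8 libraries, and the other member starts stand at 7 or fewer CG pairs and at most 2 libraries.

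Around the genes, CPC libraries held more member peaks than EPC libraries on average. Each peak counted once, the windows held 34 and 32 peaks in induced CPC, 29 and 24 in uninduced CPC, 25 and 25 in induced EPC, and 26 and 18 in uninduced EPC. The means were 29.75 ± 4.35 in CPC and 23.5 ± 3.70 in EPC (SD, n = 4 each). The difference of 6.25 was 2.75 in gene bodies alone, 2.5 within 10 kb, 3.5 with a score of at least 100 and 7 with lists of equal length. List lengths differ, and per 10000 listed peaks the windows held 11.0 ± 0.615 in CPC and 8.42 ± 0.730 in EPC (SD, n = 4 each). On that scale the libraries stood at 11.6 and 11.4 in induced CPC, 10.5 and 10.4 in uninduced CPC, 8.65 and 8.13 in induced EPC, and 9.31 and 7.60 in uninduced EPC. There every CPC library was above every EPC library, while the raw counts overlapped, with 24 in CPC uninduced 2 and 26 in EPC uninduced 1. How often other sets of 8 genes separate in this way was not measured.

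Gene by gene, 6 members had the higher mean in CPC and 2 in EPC. Among 30 other genes of heart muscle structure and calcium handling, 12 had the higher mean in CPC, 13 in EPC and 5 were equal, with a median difference of 0. Over all 19564 genes with an ATAC region in their window, 32.9% had the higher mean in CPC and 50.9% in EPC, with a median difference of -0.25 peaks. No gene of the 19564 passed a two-sided exact permutation test within doxycycline state after Benjamini-Hochberg adjustment, and 0 were below 0.05 unadjusted, since the smallest p this design allows is 0.0556. With relabelling over all 8 libraries, which ignores doxycycline, the smallest p is 0.0286, 989 genes were below 0.05 unadjusted, and 0 were after adjustment. No member had groups that did not overlap, where 1.7% of genes did with CPC higher and 3.36% with CPC lower.

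**Figure D2:**
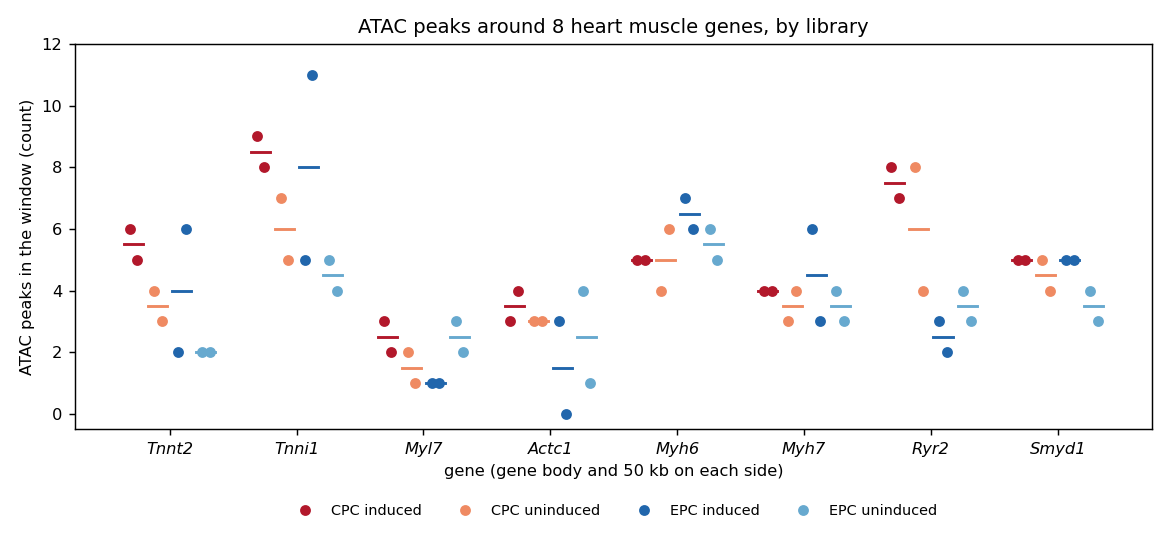
ATAC peaks (vertical axis, count) in the window of each gene, the gene body and 50 kb on each side. Points are libraries and short lines are the means of 2 libraries, for induced CPC, uninduced CPC, induced EPC and uninduced EPC from left to right within a gene. Ryr2 has 4 to 8 peaks in CPC and 2 to 4 in EPC libraries, and in Tnnt2 and Tnni1 the second induced EPC library stands above the other EPC libraries.

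Of the thick filament genes, Myl7 codes for the atrial regulatory light chain, Myh6 for the alpha heavy chain of adult mouse ventricle and Myh7 for the beta heavy chain of fetal ventricle. The Myl7 window held 3 and 2 peaks in induced CPC, 2 and 1 in uninduced CPC, 1 and 1 in induced EPC, and 3 and 2 in uninduced EPC. Its mean was 2 in CPC and 1.75 in EPC (difference 0.25, exact permutation p = 1). The Myh6 window held 5 and 5 peaks in induced CPC, 4 and 6 in uninduced CPC, 7 and 6 in induced EPC, and 6 and 5 in uninduced EPC (mean 5 in CPC and 6 in EPC, exact permutation p = 0.278). The Myh7 window held 4 and 4 peaks in induced CPC, 3 and 4 in uninduced CPC, 6 and 3 in induced EPC, and 4 and 3 in uninduced EPC (mean 3.75 in CPC and 4 in EPC, exact permutation p = 1). The Myl7 and Myh7 means differed by less than the SD of either cell type, the Myh6 means by 1 peak with an SD of 0.816 in each, and no difference passed. The small differences changed sign without 1 library, for Myl7 without CPC induced 1 (-0.0833) and for Myh7 without EPC induced 1 (0.417).

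Little of what was open around the heavy chain genes was at these genes. Inside their bodies there was 1 region, at the Myh7 start in EPC uninduced 1, and the regions with the highest scores covered the starts of neighbours. Over the start of Pabpn1, 47.2 kb from Myh6, all 8 libraries had a peak, with a mean score of 1175. Over the start of Ngdn, 19.7 kb from Myh7, all 8 had one, with a mean score of 617. Over the start of Efs all 8 had one, with a mean score of 305. Myh6 and Myh7 are paralogues with similar coding sequence, and how reads that fit both were treated is not given in the sources used here, so a missing peak over such a stretch is uncertain. The highest region near Myl7, with a mean score of 386, covered the start of Pold2, a DNA polymerase subunit, in all 8 libraries.

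Among thin filament genes, Actc1 codes for cardiac alpha actin, Tnnt2 for cardiac troponin T and Tnni1 for the slow troponin I of skeletal muscle and the fetal heart. The Actc1 window held 3 and 4 peaks in induced CPC, 3 and 3 in uninduced CPC, 3 and 0 in induced EPC, and 4 and 1 in uninduced EPC. Its mean was 3.25 ± 0.5 in CPC and 2 ± 1.83 in EPC (SD, n = 4 each; exact permutation p = 0.444), and EPC libraries spanned the range of the CPC libraries. The Tnnt2 window held 6 and 5 peaks in induced CPC, 4 and 3 in uninduced CPC, 2 and 6 in induced EPC, and 2 and 2 in uninduced EPC (mean 4.5 in CPC and 3 in EPC, exact permutation p = 0.278). The Tnni1 window held 9 and 8 peaks in induced CPC, 7 and 5 in uninduced CPC, 5 and 11 in induced EPC, and 5 and 4 in uninduced EPC (mean 7.25 in CPC and 6.25 in EPC, exact permutation p = 0.667). In both troponin windows the second induced EPC library had the highest EPC value, at or above every CPC library.

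The Tnni1 window was the densest, with 15 regions or 11.7 per 100 kb, at or above 97.3% of all genes. A region inside Tnni1, 1.2 kb past its second start (chr1:135799985-135801428), had a peak in all 8 libraries and the highest mean score near the troponin genes, 526. The scores were 784 and 877 in induced CPC, 839 and 672 in uninduced CPC, 316 and 259 in induced EPC, and 291 and 167 in uninduced EPC. Inside Tnnt2, a region 4.1 kb past the second start (chr1:135840642-135841610) had weak peaks in 3 CPC libraries, scored 55.7 and 51.7 in induced CPC and 77.4 in CPC uninduced 1, and none in EPC. The highest region near Actc1, 4.8 kb upstream of its start and scored 206 on average, is described with the induction results.

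Ryr2 had the largest gap between the progenitor types. Its window, the longest of the 8, held 8 and 7 peaks in induced CPC, 8 and 4 in uninduced CPC, 3 and 2 in induced EPC, and 4 and 3 in uninduced EPC. The mean was 6.75 ± 1.89 in CPC and 3 ± 0.816 in EPC (SD, n = 4 each). The lowest CPC library equalled the highest EPC library, at 4 peaks. The difference of 3.75 did not pass (exact permutation p = 0.111 within doxycycline state, adjusted p = 0.804 over 19564 genes, and 0.0571 unadjusted over all 8 libraries). Of the 13 regions in the window, 11 lay inside the gene and 6 were called in 1 library each. Per length the window was sparse, with 1.99 regions per 100 kb, at or above 35.1% of genes.

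Smyd1 codes for a muscle-restricted methyltransferase needed for the growth of heart muscle and the handling of myosin. Its window held 5 and 5 peaks in induced CPC, 5 and 4 in uninduced CPC, 5 and 5 in induced EPC, and 4 and 3 in uninduced EPC. The mean was 4.75 ± 0.5 in CPC and 4.25 ± 0.957 in EPC (SD, n = 4 each; exact permutation p = 0.667). The highest region, with a mean score of 1172 and a peak in all 8 libraries, covered the start of Krcc1, 7.88 kb outside Smyd1. Inside the gene, a region 2.1 kb past the start (chr6:71259664-71260762) scored 54.9 and 63.4 in induced CPC and 56.8 in CPC uninduced 2, against 127 and 247 in induced EPC and 213 and 161 in uninduced EPC. It was absent from CPC uninduced 1 alone.

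**Figure D3:**
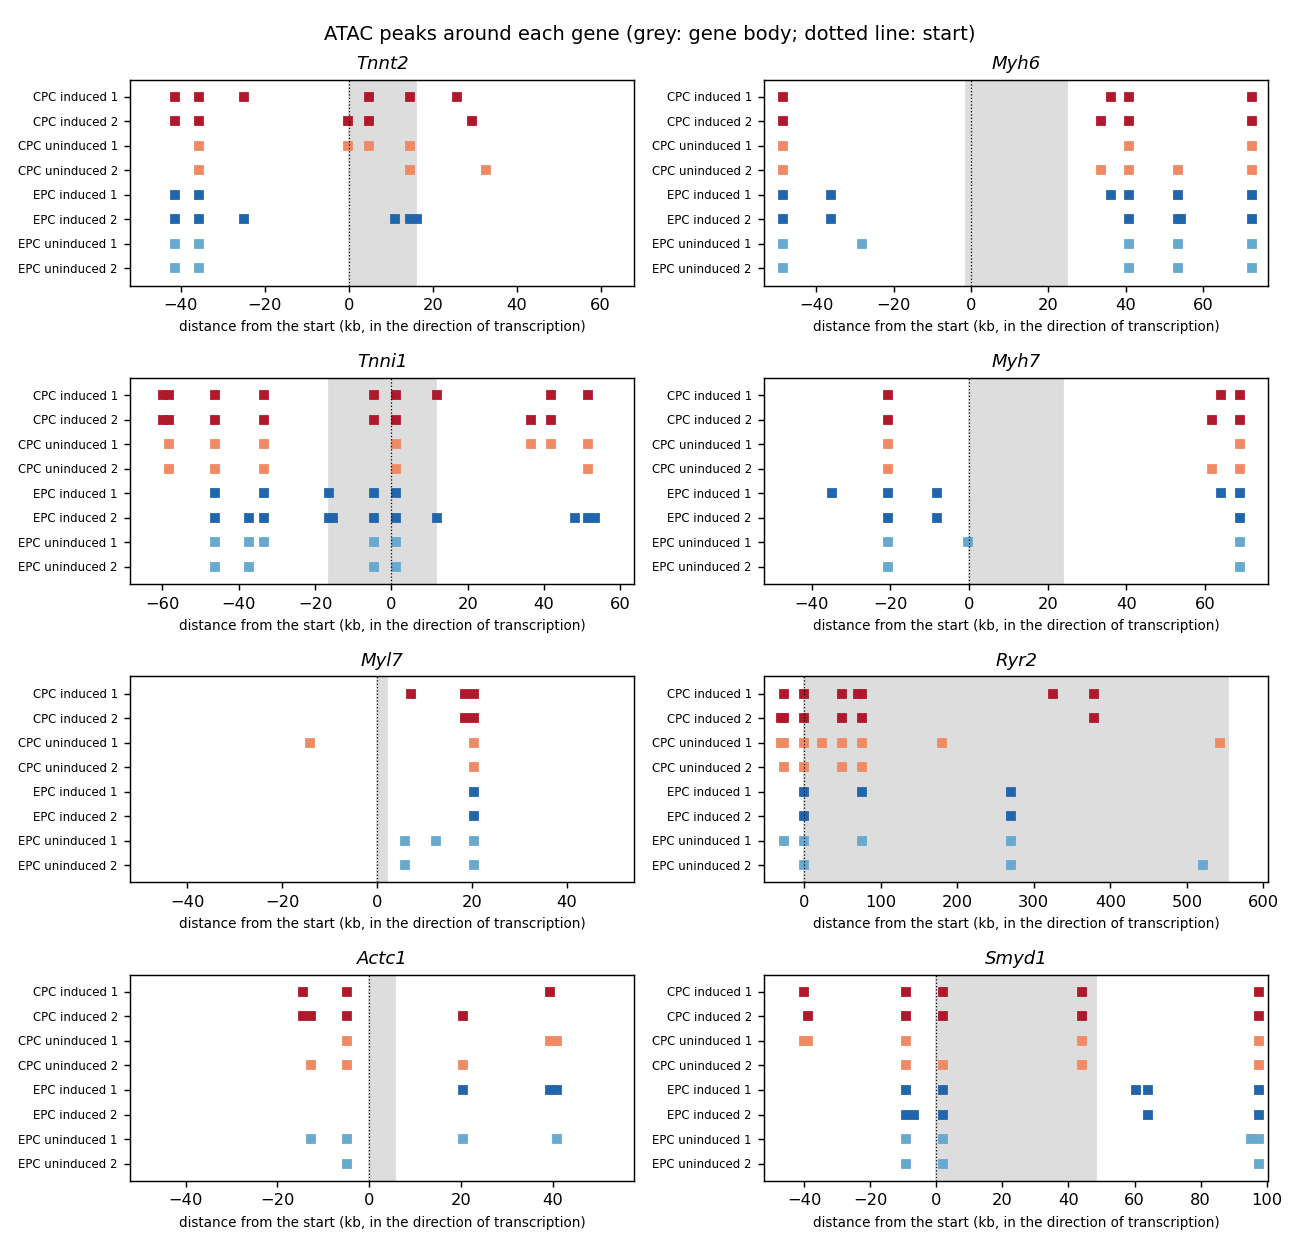
ATAC peaks of the 8 libraries (rows) around each gene, by distance from the first listed start in kb in the direction of transcription. A square marks a region where the library has at least 1 peak, grey is the gene body and the dotted line is the start. In Ryr2, the column at 270.0 kb holds EPC squares only and the column at 49.3 kb CPC squares only.

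Regions that separated the progenitor types completely were few. In the member windows 3 of 63 regions were CPC-only (4 of 4 CPC and 0 of 4 EPC libraries), against 1.8% of all ATAC regions, and 1 was EPC-only, against 2.1%. No region of the 51264 passed the two-sided exact permutation test for presence, whose smallest p is 0.0556, and 0 were below 0.05 unadjusted. By gene, 3 of 8 members had a CPC-only region in their window, against 5.02% of genes, and 1 of 8 an EPC-only one, against 7.58%. Member windows hold more regions than most, with a median of 9.5, against 4 over all genes, so the shares of regions are the closer comparison. Without CPC uninduced 2, or without EPC induced 1, there were 2 EPC-only regions.

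Ryr2 had a region of each kind inside the gene. A region 49.3 kb past the start (chr13:12057147-12058138) was CPC-only, with scores of 106 and 77.5 in induced and 273 and 154 in uninduced CPC. A region 270.0 kb past the start (chr13:11836438-11837540) was EPC-only, with scores of 263 and 512 in induced and 497 and 396 in uninduced EPC. The EPC-only region had the highest mean score of the window, 417, and stood at or above 78.2% of the peaks of a library in the median. The CPC-only region stood at or above 48.3%. Another region, 26.2 kb upstream (chr13:12131949-12134306), came close to CPC-only. It scored 269 and 109 in induced CPC, 462 and 256 in uninduced CPC, and 89.9 in EPC uninduced 1, the only EPC library with a peak.

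The other 2 CPC-only regions belonged to Smyd1 and Tnni1. The Smyd1 region lay inside the gene, 44.2 kb past its start (chr6:71217509-71218602), and scored 296 and 239 in induced and 150 and 127 in uninduced CPC. The Tnni1 region lay 41.2 kb outside the gene (chr1:135740587-135741835), inside Csrp1, a LIM protein gene of smooth muscle and other cells, and scored 268 and 165 in induced and 451 and 183 in uninduced CPC. Which of these genes it acts on was not measured.

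Set apart by state, 10 of 63 regions were in both induced CPC and neither induced EPC library, against 5.62% of all regions, and 5 were in both induced EPC and neither induced CPC library, against 7.05%. In uninduced cells the counts were 4 in CPC without EPC, against 5.91%, and 4 in EPC without CPC, against 6.12%. These counts rest on pairs of libraries. Without CPC induced 1 the induced CPC count was 16. The induced EPC count was 11 without EPC induced 1 and 8 without EPC induced 2. The uninduced CPC count was 14 without CPC uninduced 2 and 7 without CPC uninduced 1 or without EPC uninduced 1, and the uninduced EPC count was 7 without EPC uninduced 2. With presence in any library as the measure, 23 of 63 regions (36.5%) were in CPC and not in EPC, against 22.1% of all regions, and 17 (27.0%) in EPC and not in CPC, against 23.6%. Of the 63, 9 (14.3%) were in all 8 libraries, against 25.5%, and 21 (33.3%) in 1 library, against 26.7%. Of the 9, 5 covered the start of a gene that is no member, 1 covered the Ryr2 start and 3 covered none.

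After induction in CPC, the deposited lists held a few more peaks around the contractile genes, as they did around most genes whose count differed. The windows together held 33 ± 1.41 peaks in induced and 26.5 ± 3.54 in uninduced CPC (SD, n = 2 each), a difference of 6.5 that was 4 without CPC uninduced 2. It was 3.5 with lists of equal length and 3 with a score of at least 100. The mean was higher in 7 members, lower in 0 and equal in Myh6, and over all genes it was higher in 47.5% and lower in 22.9%. With 2 against 2 libraries the smallest p is 0.333, so no gene could pass, and 0 were below 0.05 unadjusted. In 2 members, Tnnt2 (6 and 5 peaks in induced, 4 and 3 in uninduced CPC) and Tnni1 (9 and 8 in induced, 7 and 5 in uninduced CPC), the groups did not overlap, against 14.6% of genes with induced higher and 3.62% with induced lower. These neighbouring windows share regions. With lists of equal length both differences were 0, with means of 3 in induced and 3 in uninduced CPC for Tnnt2 and of 5.5 in induced and 5.5 in uninduced CPC for Tnni1. Ryr2 held 8 and 7 peaks in induced and 8 and 4 in uninduced CPC, a difference of 1.5 that was -0.5 without CPC uninduced 2, the shortest list.

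In CPC 5 of 63 regions were gained (called in both induced libraries and in none uninduced), against 5.75% of all regions, and 0 were lost, against 2.35%. The count of gained regions was 11 without CPC induced 2, and that of lost regions was 1 without CPC induced 1, 2 without CPC uninduced 1 and 5 without CPC uninduced 2. By gene, 5 of 8 members had a gained region in their window, against 18.5% of genes, and 0 a lost one, against 8.36%. One gained region counts for both Tnni1 and Tnnt2, and member windows hold more regions than most, so the shares of regions are the closer comparison. The authors' deposited list of CPC peaks found only with induction has 3093 entries, of which 5 lay in member windows, on the same 5 gained regions. These 5 entries carry the scores of CPC induced 1, so the match comes from the same peaks and is no separate support.

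The 2 strongest gained regions were at Tnni1 and Actc1. Inside Tnni1, 4.5 kb upstream of the nearest listed start (chr1:135794234-135795543), induced CPC scored 259 and 220 and uninduced CPC had no peak. This region was open in EPC in both states, with scores of 275 and 768 in induced and 314 and 102 in uninduced EPC. At Actc1, 14.5 kb upstream (chr2:114066822-114067839), induced CPC scored 186 and 126, and no other library had a peak. The other 3 gained regions were weak and had no EPC peak: 75.1 and 68.2 at 18.6 kb downstream of the Myl7 start, 1.52 kb from the Pold2 start; 80.1 and 54.6 inside Ryr2, 378.1 kb past its start; and 51.7 and 77.3 inside Csrp1, 59.8 kb upstream of Tnni1.

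In EPC the change in counts was mixed. Induced EPC averaged 25 ± 0 peaks over the windows and uninduced EPC 22 ± 5.66 (SD, n = 2 each), a difference of 3 that was -1 without EPC uninduced 2 and 7 without EPC uninduced 1. With a score of at least 100 it was 0, and with lists of equal length 1.5. The mean was higher in 5 members and lower in 3, against 49.0% and 20.9% of all genes. Groups did not overlap for Smyd1 (5 and 5 in induced, 4 and 3 in uninduced EPC), with 14.9% of genes so called, and for Myl7 (1 and 1 in induced, 3 and 2 in uninduced EPC), with 3.26% of genes called in that direction (exact permutation p = 0.333 for both, the smallest possible). The lower Actc1 mean in induced EPC, by 1 peak, turned to 0.5 higher without EPC induced 2, and also without EPC uninduced 1. The higher Myh7 mean turned to 0.5 lower (-0.5) without EPC induced 1.

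In EPC 3 of 63 regions were gained, against 6.12%, and 2 were lost, against 1.82%. The gained count was 10 without EPC induced 1 and 7 without EPC induced 2, and the lost count was 7 without EPC uninduced 2. By gene, 4 of 8 members had a gained region, against 19.6% of genes, and 2 a lost one, against 7.07%. The gained region near Myh7 counts for Myh6 as well, and member windows hold more regions than most. The shares of regions are therefore the closer comparison. The gained regions were weak: 58.7 and 64.6 over the upstream end of the annotated Tnni1 gene, 53.6 and 103 at 8.1 kb upstream of Myh7 (chr14:55002306-55003142), and 76.4 and 82.2 at 1.27 kb from the start of Fabp1, 15.3 kb outside Smyd1. None of the 3 had a peak in CPC. The authors' deposited list for induced EPC has 3267 entries, of which 3 lay in member windows, on these same 3 regions. The 3 entries carry the scores of EPC induced 1, so this match too comes from the same peaks.

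The 2 regions lost in EPC were at Actc1 and Myl7. Upstream of Actc1, 4.8 kb from its start (chr2:114057075-114058279), no induced EPC library had a peak and uninduced EPC scored 76.2 and 116. The same region was open throughout CPC, with scores of 219 and 199 in induced and 462 and 165 in uninduced cells, so in induced cells it was a region of CPC alone. Downstream of Myl7, 5.8 kb past its start (chr11:5892559-5893437), uninduced EPC scored 109 and 50.4, and no other library had a peak.

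**Figure D4:**
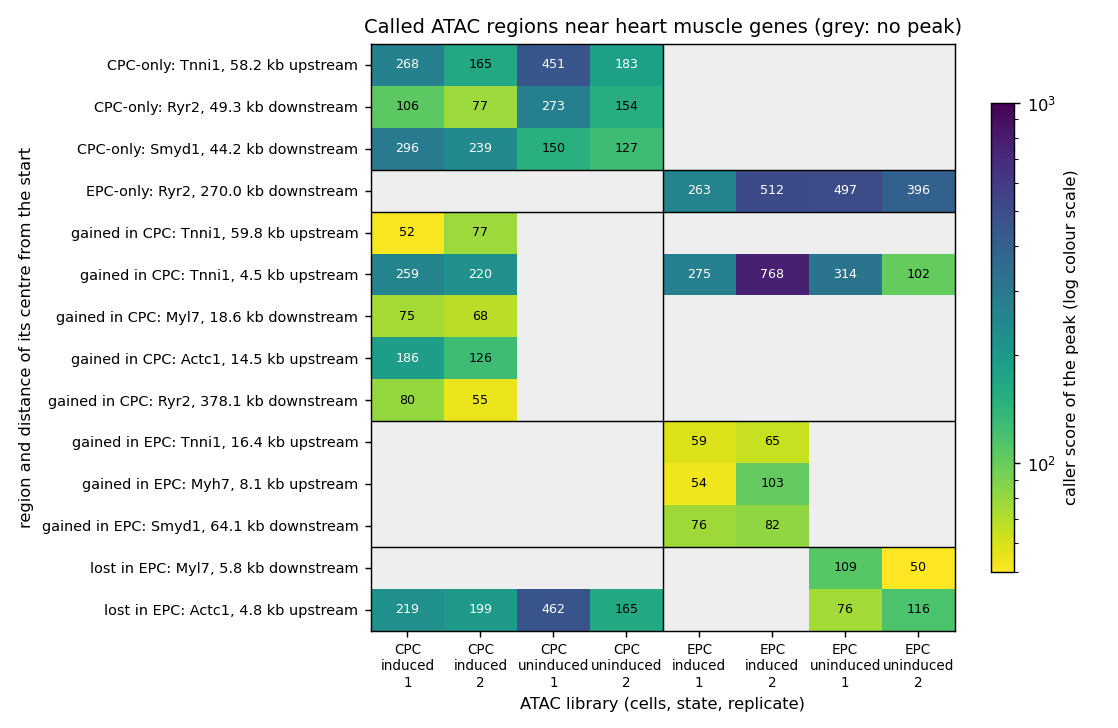
Caller scores (numbers and log colour scale) of the 14 distinct regions that were CPC-only, EPC-only, gained or lost, in each ATAC library, with grey for no peak. Induced CPC, uninduced CPC, induced EPC and uninduced EPC run from left to right. The Actc1 region 14.5 kb upstream has scores of 186 and 126 in induced CPC alone, and the Ryr2 region at 270.0 kb has scores of 263 to 512 in EPC alone.

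Whether induction acted differently in the 2 cell types was tested directly, by exact permutation of the doxycycline labels within cell type. Myl7 had the lowest p, with induced minus uninduced at 1 in CPC and -1.5 in EPC, and it did not pass (difference 2.5, exact permutation p = 0.111, adjusted p = 1 over 19564 genes). Ryr2 had an equal difference of 2.5, with 1.5 in CPC and -1 in EPC (exact permutation p = 0.444, adjusted p = 1). For the other 6 members the exact permutation p was at least 0.444.

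The 14 called regions lay inside a member in 6 cases and outside in 8, and 0 of them covered a listed start. The Tnni1 region gained in EPC covered the upstream end of the annotated gene, which is not among the listed starts. The nearest listed start was that of a member for 9 and of another gene for 5. Called status held under all 4 other readings (a score of at least 60, a score of at least 100, lists cut to equal length and peaks covering 50% of the region) for 5 of them: the Actc1 region 14.5 kb upstream, the Tnni1 regions 4.5 and 58.2 kb upstream, the Smyd1 region at 44.2 kb and the EPC-only Ryr2 region. The regions at Actc1 4.8 kb upstream, Myl7 18.6 kb, Ryr2 49.3 kb and Smyd1 64.1 kb were called under 3 of 4, all but the score of 100. The last 5 were called under 1 of 4. These readings also make an absent peak easier to meet, and each of the following was newly called under 1 of 4. With a score of at least 100 these were the Ryr2 regions at 76.2 kb (gained in CPC) and 26.2 kb upstream (CPC-only) and the Smyd1 region at 2.1 kb (EPC-only). With lists of equal length it was the Tnni1 region 37.4 kb upstream (lost in EPC).

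The Sox7 ChIP put no peak near any of the 8 genes. In all 9 lists, 4 induced, 4 uninduced and 1 input, the member windows held 0 peaks, so there was no difference to test. Over all genes, 24.1% had a region of any induced list in their window, 8.94% one of any uninduced list and 3.48% an input region. An induced Sox7 site, called in 3 or 4 of the 4 induced libraries and in 0 uninduced ones, was in the window of 1.88% of genes, so 0 of 8 is close to that background. Of the 4548 ChIP regions, 235 (5.17%) were such sites.

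The nearest ChIP peak of any list lay in an induced list for all 8 genes, against 80.6% of all genes, and the induced lists hold more peaks (1061 to 2807) than the uninduced ones (772 to 1059). It was 186 kb from Myh7, 199 kb from Tnni1, 213 kb from Myh6, 252 kb from Tnnt2, 294 kb from Actc1, 376 kb from Myl7, 462 kb from Ryr2 and 574 kb from Smyd1. The nearest induced site was 656 kb from Myl7 and at least 2289 kb from each of the others. The authors' deposited lists of 666 Sox7 entries and of 117 Sox7 and Gata4 entries also had 0 in the member windows. So the regions that came or went with induction had no ChIP peak within 50 kb of their gene. At this depth, which is unknown, a weak site can be missed.

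Of the 30 other heart muscle genes, 3 had a CPC-only region in their window (10%, against 5.02% of all genes), namely Myl3, Nebl and Slc8a1, and 2 an EPC-only region (6.67%, against 7.58%), Mybpc3 and Slc8a1. Slc8a1, the sodium and calcium exchanger of the cell membrane, had a region of each kind, as Ryr2 did. With induction in CPC, 14 of 30 had a gained region (46.7%, against 18.5%), as did 4 of 10 endothelial and 5 of 9 blood genes, and 2 had a lost one (6.67%, against 8.36%). In EPC 5 had a gained region (16.7%, against 19.6%) and 4 a lost one (13.3%, against 7.07%). These shares do not allow for the number of regions in a window, and Nppa and Nppb share 1 gained region. Some of those gained in CPC were open in EPC. A region near Nppa, the atrial natriuretic peptide, scored 91.8 and 90.1 in induced CPC, 1886 and 1872 in induced EPC, and 864 and 628 in uninduced EPC. A region near Ttn, the giant spring protein, and one in Cacna1c, a calcium channel subunit, each had a peak in both induced EPC libraries and in EPC uninduced 1. Of the 30, 11 had a ChIP region of any list in their window (against 25.9% of all genes) and 2, Tnni3 and Casq2, an induced site (against 1.88%). Of the 26 with a promoter sequence, 17 had no peak at a start in any library (against 41.1% of all promoters). Myl4, Actn2 and Hcn4, 3 of the 26, had one in all 8 (against 41.1%).

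Skeletal muscle, smooth muscle and pluripotency genes were counted in the same way. Of 9 skeletal muscle genes, 1 had a CPC-only and 0 an EPC-only region, and of 4 smooth muscle genes and 3 pluripotency genes, 0 had either. Over all genes the shares were 5.02% and 7.58%. Myh1, Myh2 and Myh8 had 0 ATAC regions in their windows, so no call was possible there. With so few genes, these counts cannot tell which other cells the sorted populations held. The part of other cells in the member regions was not tested.

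The peak counts of 2714 genes with at least 10 regions were set beside the summed member counts over the 8 libraries. The 5 most alike were Capn10 (r = 0.953), Rnf220 (0.941), Spata13 (0.939), Nrp2 (0.938) and Gli3 (0.937), and 11 genes had r above 0.9. The libraries share list length with both sides of this measure, and the summed member count had r = 0.559 with list length (n = 8 libraries), so the ranking is a description only.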

How the data were processed

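The deposited files were peak lists, 1 per ChIP, input or ATAC library, and 4 lists the authors derived from them. Each peak has a score, deposited by the authors, and in the MACS 1.4 format this is minus 10 times the log10 of its p-value. Another pair of their lists holds positions without a score. Per the submitters' processing notes the build was mm10 (GRCm38) and the tools include Trimmomatic, Bowtie2, SAMtools, bedtools and MACS 1.4, with no settings given in the sources used here. No list holds read counts, so depth is unknown, and a missing peak can also mean a shallower library. RNA-seq (4 samples, doxycycline for 12 h) is not analysed here.

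Peaks of an assay that overlapped by 1 bp or more were merged into regions, and a library had a region if any of its peaks overlapped it. Genes and starts came from RefSeq tables of GRCm38.p6. For peaks per window the test was an exact permutation, two-sided (the smaller tail doubled), over all genes with an ATAC region, with Benjamini-Hochberg adjustment, in Python 3.11.15 with numpy 2.4.6 and figures in matplotlib 3.10.9. The code was tested on simulated data. Named regions were those called CPC-only, EPC-only, gained or lost, those at a member start and the highest by mean score near each gene, and a few others chosen after their values were seen. Whether replicates came from separate cultures is not stated, and the spread behind each p-value may be technical. The members, gene lists and tests were chosen with earlier results of these data known.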

Additional observations from a re-analysis of the deposited data

Results flagged for a closer look

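A library was set apart where its gap to the nearest of the 4 libraries of a cell type took up most of the range. This was checked in 16 sets of 4 libraries, chance alone flags about 1 in 20 such sets, and peak counts are small whole numbers with many ties, which raises that share. In EPC the second induced library had 6 peaks in the Tnnt2 window, where the other 3 had 2 each, and 11 in the Tnni1 window, where the others had 4 or 5. These 2 windows share regions, so they are not separate observations, and the library has the longest ATAC list, with 30732 peaks. In CPC the second induced library had 4 peaks in the Actc1 window, where the others had 3 each. The second uninduced CPC library, with the shortest list of 23068 peaks, had 4 peaks in the Smyd1 window, where the others had 5 each. The first uninduced CPC library had 3 peaks in the Myh7 window, where the others had 4 each. In the last 3 sets the gap was 1 peak.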

How the results depend on the processing

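Apart from relabelling over all 8 libraries (smallest p 0.0286), where no member passed, the tests could not reach 0.05, so their p-values say nothing about stability. For ChIP no peak of any list lay within 186 kb of a member. The 0 peaks and sites were therefore fixed at every window up to 100 kb and say nothing about stability. Of the counts of regions and the differences of summed peaks, 71 stayed within 1.5 times or 1 SD of the main value under another setting and 25 did not. Without 1 library, 56 stayed within it and 16 did not. Both tallies include the count of induced Sox7 sites, which was 0 throughout and had no peak nearby to change it. The SD rule is wide for induction in EPC, where the SD of the uninduced libraries was 5.66. There a summed difference of 3 that turned to -1 without EPC uninduced 2 counts as within it. With gene bodies alone (0 kb) there were 4 induced CPC-only, 2 induced EPC-only, 2 uninduced EPC-only, 2 gained in CPC, 1 gained and 0 lost in EPC regions, and the summed difference with induction in CPC was 2 peaks. At 10 kb there were 5 induced CPC-only, 3 induced EPC-only and 2 gained in CPC regions, and at 100 kb 2 EPC-only, 9 gained in CPC and 1 lost in CPC. With a score of at least 60 there were 3 induced EPC-only, 3 gained in CPC, 1 gained and 1 lost in EPC regions. At 100 there were 2 EPC-only, 6 induced CPC-only, 2 induced EPC-only, 3 gained in CPC, 0 gained and 0 lost in EPC. With lists of equal length there were 3 gained in CPC and 1 gained in EPC. Leaving out 1 library at a time gave 1 to 2 EPC-only, 3 to 4 CPC-only, 10 to 16 induced CPC-only, 5 to 11 induced EPC-only, 4 to 14 uninduced CPC-only and 4 to 7 uninduced EPC-only regions. Gained regions then numbered 6 to 11 in CPC and 3 to 10 in EPC, and lost ones 0 to 5 in CPC and 2 to 7 in EPC. The summed difference, CPC minus EPC, was 4.42 to 8.17. Outside these ranges it was 2.75 at 0 kb, 2.5 at 10 kb and 3.5 with a score of 100, and the summed difference with induction in CPC was 3.5 at 10 kb and with equal lists, and 3 with a score of 100. In EPC that difference was -1 to 7 without 1 library. Signs of single-gene differences turned in 12 cases under another setting and 6 without 1 library. CPC minus EPC was -1.25 for Tnni1 at 0 and at 10 kb. It was -0.5 for Myl7 and 0.5 for Myh6 at 10 kb, and with a score of 100 it was -0.5 for Tnnt2 and Smyd1, -0.25 for Myl7 and 0.5 for Myh6 and Myh7. For Myh7 it was 0.25 with equal lists, and leaving out 1 library at a time gave -0.583 to 0.417 for Myh7 and -0.0833 to 0.667 for Myl7. Induced minus uninduced was -0.5 for Myh7 in EPC at 0 kb and in CPC at 100 kb. Without 1 library it was -0.5 to 3.5 for Ryr2 in CPC, and in EPC -2.5 to 0.5 for Actc1 and -0.5 to 2.5 for Myh7. The cause was not tested, beyond what fewer peaks or libraries bring. Same-numbered libraries were not established as pairs (r of their deviations -0.0985 to 0.108). With the replicate block the Ryr2 difference was 3.75 with an exact p of 0.125, the smallest that 4 pairs allow, and it changed no call. Read depth is unknown and limits every absent peak.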
